A study of Homo sapiens with 42 samples.

Results

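The MYB and HBS1L locus was taken as the loops on chromosome 6 with at least 1 anchor starting in a window of 1.5 Mb (134.5 to 136.0 Mb, hg38), which contains both genes and the stretch between them. A loop here is a pair of 10 kb anchors, and its value is the number of Hi-C contacts counted between them. The rule gave 35 of the 33914 loops in the table, of which 13 had both anchors in the window and 22 had 1. Their lengths ran from 90 to 1320 kb with a median of 370 kb, against a median of 440 kb over all loops. The rule used position alone, but the locus was chosen with earlier results of these data known.

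The cells were K562, an established human leukemia line with erythroid features, labelled wild type (WT). They were treated with PMA, a phorbol ester that activates protein kinase C, at 25 nM for 0 h, 6 h or 72 h to induce differentiation towards megakaryocytes. In situ Hi-C ligates DNA fragments that are neighbours in the fixed nucleus, and each sequenced junction counts as 1 contact. Each time point had 4 biological replicates of this line, and no arm without PMA was sampled at 6 h or 72 h, so time in culture and PMA cannot be told apart.

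MYB encodes a transcription factor that keeps haematopoietic progenitors proliferating, and its level falls as erythroid and megakaryocytic cells mature. HBS1L, its neighbour on the opposite strand, encodes a GTPase that helps to rescue stalled ribosomes. The DNA between them is known for enhancers bound by GATA1, TAL1, LDB1 and KLF1 that contact the MYB promoter in erythroid cells, and for common variants associated with fetal haemoglobin and with platelet and red cell traits. Enhancer marks, RNA levels and protein binding were not used here, so an anchor is described by its position only.

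In the RefSeq annotation of GRCh38.p14, 5 protein-coding genes overlap the window. HBS1L lies at chr6:134960378-135054822 and MYB at chr6:135181308-135219172. ALDH8A1, an aldehyde dehydrogenase gene, precedes HBS1L at chr6:134917393-134950101. AHI1, which encodes a protein of the primary cilium, follows MYB at chr6:135283532-135497740, and PDE7B, a cyclic AMP phosphodiesterase gene, lies further on at chr6:135851701-136195574. Below, intergenic means outside the protein-coding genes of this annotation, and exons and introns were not told apart. The stretch between the starts of HBS1L and MYB is 126.5 kb long. The 2 starts face away from each other, and the sequences just before them are shown because both lie in anchors of loops described here. The sequences are the 250 bases before each annotated start, from RefSeq (GRCh38.p14), 5′ to 3′ on the strand of the gene, with motif matches in capitals. MYB is at chr6:135181058-135181307 on the plus strand, and HBS1L at chr6:135054823-135055072 on the minus strand.
MYB: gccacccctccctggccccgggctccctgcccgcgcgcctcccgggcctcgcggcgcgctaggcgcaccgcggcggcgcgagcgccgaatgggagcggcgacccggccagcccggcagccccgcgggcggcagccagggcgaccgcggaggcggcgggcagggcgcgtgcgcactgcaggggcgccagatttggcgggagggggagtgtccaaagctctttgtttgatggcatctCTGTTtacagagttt
HBS1L: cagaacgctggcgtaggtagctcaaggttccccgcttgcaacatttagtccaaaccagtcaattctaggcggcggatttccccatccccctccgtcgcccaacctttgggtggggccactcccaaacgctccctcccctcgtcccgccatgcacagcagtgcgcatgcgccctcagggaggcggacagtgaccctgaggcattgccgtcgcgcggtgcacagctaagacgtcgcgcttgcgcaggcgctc
Both strands were searched for the AP-1 motif (TGA and TCA with any base between them), the GATA motif (GATAA), the MYB motif (AACNG) and a CTCF core motif. The only match in either sequence was a MYB motif on the opposite strand, 15 to 11 bases before the start of MYB. Over 35116 RefSeq promoters of the same length, 70.6% held that motif, 20.4% the GATA motif, 6.57% the AP-1 motif and 0.712% the CTCF motif. The MYB sequence was 75.6% G and C with 34 CpG sites, and the HBS1L sequence 64.0% with 22, against medians of 58.0% and 11.0. These matches describe letters in these windows only.

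The loops fell into groups by position. From the start of HBS1L to the middle of AHI1 lay 8 loops, which include every listed loop with an anchor at the MYB gene. Another 11 loops ended before HBS1L, 13 began at the far end of AHI1 or beyond it, and 3 long loops spanned more than 1 of these stretches. Of the 126.5 kb between the genes, 4 anchors covered 26.5 kb (20.9%). No listed anchor fell in chr6:135070001-135140000 (70.0 kb) or in chr6:135150001-135180000 (30 kb). The 35 loops used 50 different anchors, 15 of them more than once, so neighbouring loops are not independent. An end of a protein-coding gene lay in an anchor for MYB, HBS1L, AHI1, SGK1 and BCLAF1.

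Depth was 736929 to 1472197 contacts per library over all loops, and 728 to 1623 contacts per library over the 35 loops. The exact 95% Poisson interval is 20.2 to 42.8 for 30 contacts and 4.8 to 18.4 for 10, for counting error only. The 72 h libraries 3 and 4 did not differ detectably beyond the sampling noise (chi-square 1.0031 per degree of freedom over loops, p = 0.367). Their mean therefore enters each mean ± SD as 1 sample, which leaves n = 3 at 72 h and n = 4 at 0 h and 6 h, while the tests kept them as 2 libraries. Replicates 3 and 4 were also the closest pair at 0 h (chi-square 1.0179 per degree of freedom, p = 0.0253) and at 6 h (1.0229, p = 0.00621). They may not be fully independent, so p-values from tests within replicates 3 and 4 can be too small. Levels are normalized contacts, scaled to 1000000 contacts in tested loops after TMM scaling. Of the 35 loops, 32 had enough counts to be tested among 24132 loops. The other 3 were long and thin: loop14991 at HBS1L (29, 23 and 24 contacts in all at 0 h, 6 h and 72 h), loop15003 (16, 30 and 32) and loop15004 (26, 18 and 44).

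Loops around MYB lost contacts by 6 h and had also lost them at 72 h, while several longer loops on either side gained contacts by 72 h. At 6 h, 5 of the 32 tested loops fell and 0 rose (edgeR quasi-likelihood test, Benjamini-Hochberg adjusted p under 0.05), beside 6.41% of all tested loops changed (2.34% rose and 4.07% fell). At 72 h, 7 rose and 6 fell, 40.6% of the 32, beside 33.6% of all tested loops (16.7% rose and 16.9% fell). Each of the 7 that rose had 1 anchor outside the window. From 6 h to 72 h, 4 rose and 0 fell, beside 20.5% of all (10.7% rose and 9.81% fell). At an unadjusted p under 0.05, 4908, 10480 and 8028 of all tested loops differed in these comparisons. The median log2 fold change of the 32 loops was -0.07 at 6 h and 0.06 at 72 h, beside 0.01 over all tested loops at both times. Groups did not overlap for 2 higher and 4 lower loops at 6 h, beside 10.7% of all tested loops (4.97% higher and 5.77% lower). At 72 h they did not overlap for 5 higher and 6 lower loops, beside 28.3% (14.2% and 14.1%), and between 6 h and 72 h for 4 higher and 0 lower, beside 19.8% (10.4% and 9.43%). The comparisons against 0 h share its libraries. The 6 h calls were less secure than those at 72 h: DESeq2 called 0 of the loops at 6 h, 9 at 72 h and 0 between 6 h and 72 h, and without 0 h replicate 1, the deepest library, edgeR called 0 at 6 h and 11 at 72 h. Calls also dropped in the whole table. There DESeq2 called 438, 4977 and 1979 loops in these comparisons, where edgeR called 1546, 8105 and 4945. Without 0 h replicate 1, edgeR called 709 loops of the whole table at 6 h and 6554 at 72 h.

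**Figure D1:**
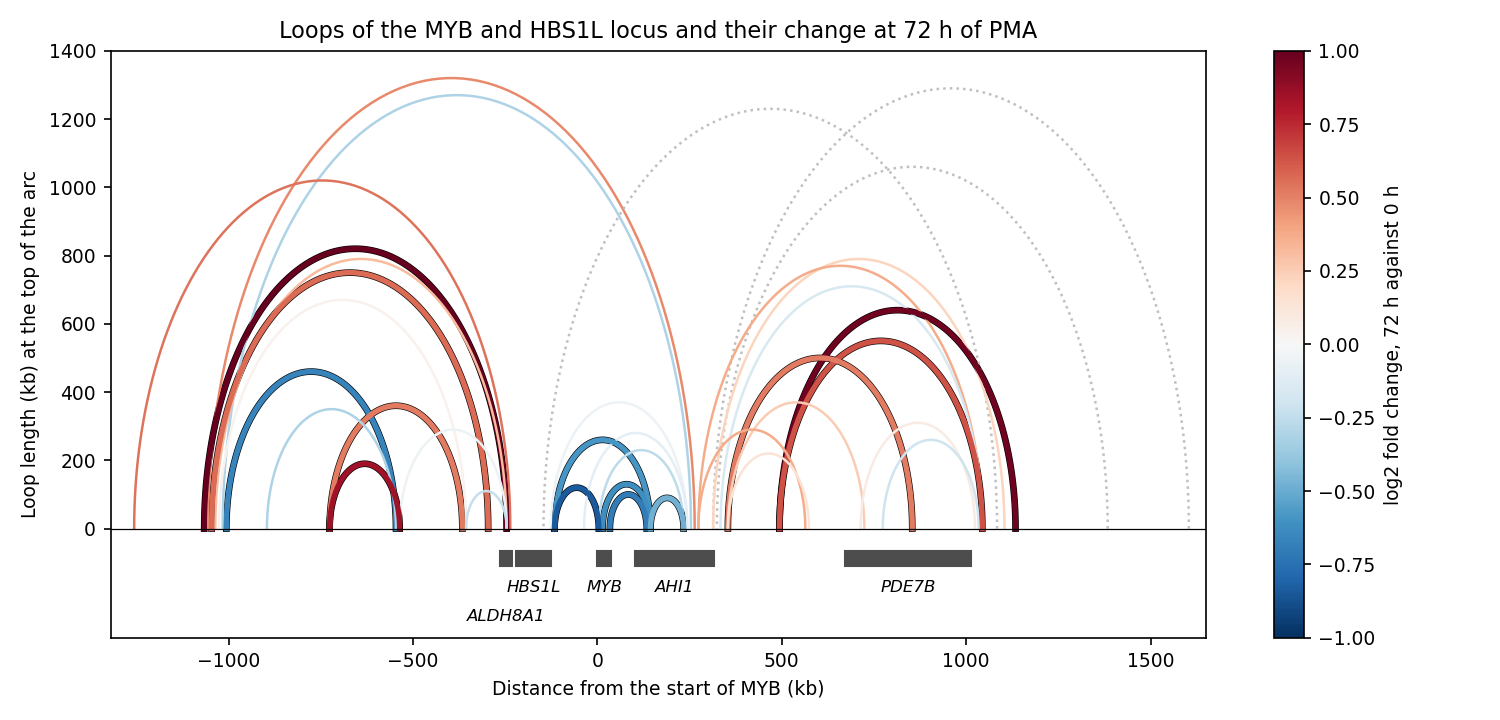
Arcs join the anchors of the 35 loops, placed by distance from the start of MYB in kb, with the top of each arc at the loop's length. Colour is the log2 fold change at 72 h against 0 h, thick outlined arcs are the 13 changed loops (edgeR adjusted p under 0.05), dotted grey arcs the 3 untested loops and grey bars the genes; the 5 changed arcs between HBS1L and AHI1 are blue (fell), and the 7 that rose lie on either side.

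The split by position was made after the loops' values were known, so it is a description. Of the 8 loops between HBS1L and AHI1, 4 fell at 6 h and 5 fell at 72 h, and none rose. These are 50.0% and 62.5% of the 8, beside 4.07% and 16.9% of all tested loops that fell. All 8 had negative log2 fold changes at both times, with medians of -0.47 and -0.53. At 72 h, 5 of the 8 were lower in every library than at 0 h, and at 6 h 3 of the 8 were. Over all tested loops these shares were 14.1% and 5.77%. These loops were short, 90 to 370 kb with a median of 180 kb, and short loops fell more often in the whole table. Among all tested loops within 10% of the length of each of the 5 that fell at 72 h, between 17.0% and 31.3% fell, with median log2 fold changes between -0.16 and -0.03. For the 4 that fell at 6 h, between 7.8% and 12.2% of the tested loops of such length fell at 6 h. With counts corrected for loop length, the same 5 fell at 72 h, and 3 of the 4 did at 6 h.

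Of the loops with an anchor between the genes, loop14993 alone reached the start of MYB. It is 120 kb long and joins chr6:135060001-135070000, an intergenic anchor 5.2 kb from the start of HBS1L, to the anchor that holds the MYB start (chr6:135180001-135190000). Its normalized contacts at 0 h were 68.8, 63.6, 69.0 and 46.6 in replicates 1 to 4. They were 49.0, 46.7, 41.0 and 24.1 at 6 h, and 46.0, 30.1, 34.3 and 25.9 at 72 h. All 4 libraries of 72 h lay below the lowest at 0 h, whereas the 6 h values overlapped those at 0 h through 0 h replicate 4. Means were 62.0 ± 10.6 (SD, n = 4), 40.2 ± 11.2 (n = 4) and 35.4 ± 9.17 (n = 3). The log2 fold change was -0.59 (SE 0.15, edgeR adjusted p = 0.00789) at 6 h and -0.84 (SE 0.15, adjusted p = 4.24e-06) at 72 h, or 0.56 of the 0 h level. The fall at 72 h was -0.77 within replicates 1 and 2 and -0.89 within replicates 3 and 4, and that at 6 h -0.47 and -0.80, neither of which passed the edgeR threshold (adjusted p = 0.168 and 0.0693). The 6 h call was also lost without 0 h replicate 1 (-0.53) or 6 h replicate 4 (-0.44). The mean of its 4 libraries at 0 h was 1.04 times the median of listed loops within 10% of its length, and at 72 h 0.592 times.

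The MYB start anchor held 1 other loop, loop14996, which runs 230 kb the other way to chr6:135410001-135420000 inside AHI1. It held 53.6, 57.0, 33.9 and 54.6 normalized contacts at 0 h, 50.0, 43.9, 46.7 and 30.2 at 6 h and 52.2, 30.1, 35.4 and 48.2 at 72 h. The 3 times overlapped, with log2 fold changes of -0.23 (SE 0.16, edgeR adjusted p = 0.427) and -0.26 (SE 0.15, adjusted p = 0.177). The ratio of loop14993 to loop14996 within a library was 1.32 ± 0.508 (n = 4) at 0 h, 0.931 ± 0.115 (n = 4) at 6 h and 0.878 ± 0.123 (n = 3) at 72 h. The 0 h ratios ran from 0.854 to 2.04 and overlapped the others, and the difference between the changes of these loops was not tested.

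Loops from the body and the far end of MYB into AHI1 had the highest mean counts of the locus over all 12 libraries, and they fell at both times. At 72 h alone loop14978, described below, stood higher (59.5 ± 4.35, n = 3) than loop14997 (54.5 ± 4.22, n = 3). Loop14997 joins chr6:135190001-135200000, inside MYB, to chr6:135320001-135330000, inside AHI1, over 130 kb. It held 94.2, 69.3, 84.0 and 87.5 normalized contacts at 0 h, 55.9, 43.9, 69.3 and 68.8 at 6 h, and 59.3, 51.2, 56.2 and 50.0 at 72 h. The 72 h libraries all lay below those of 0 h, and at 6 h replicate 3 reached the level of 0 h replicate 2. Its log2 fold change was -0.52 (SE 0.13, edgeR adjusted p = 0.00642) at 6 h and -0.62 (SE 0.13, adjusted p = 6.06e-05) at 72 h. The 72 h values within replicates 1 and 2 and within 3 and 4 were -0.58 and -0.68. At 6 h they were -0.73 and -0.31, and the second did not pass (edgeR adjusted p = 0.466). The 6 h call was lost without 0 h replicate 1 (-0.45) or 6 h replicate 2 (-0.39).

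Loop14998 joins chr6:135210001-135220000, which holds the 3′ end of MYB, to chr6:135310001-135320000 inside AHI1, over 100 kb. Its normalized contacts were 96.3, 63.6, 72.8 and 93.2 at 0 h, 58.8, 55.1, 48.1 and 62.7 at 6 h, and 55.7, 48.2, 46.8 and 49.1 at 72 h. All libraries of 6 h and of 72 h lay below the lowest of 0 h, although 6 h replicate 4 (62.7) came close to 0 h replicate 2 (63.6). The log2 fold change was -0.53 (SE 0.13, edgeR adjusted p = 0.00595) at 6 h and -0.70 (SE 0.13, adjusted p = 9.4e-06) at 72 h. Within replicates 1 and 2 and within 3 and 4 it was -0.52 and -0.56 at 6 h, neither past the edgeR threshold (adjusted p = 0.0953 and 0.129), and -0.64 and -0.77 at 72 h. Without 0 h replicate 1 the 6 h call was lost (-0.42).

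Loop14999 lies wholly inside AHI1, over 90 kb from the same anchor as loop14997 to that of loop14996. It held 75.3, 65.5, 70.3 and 75.0 normalized contacts at 0 h, 39.2, 57.9, 62.3 and 41.0 at 6 h, and 58.4, 53.2, 45.8 and 45.5 at 72 h. No library of 6 h or 72 h reached the 0 h range. The log2 fold change was -0.51 (SE 0.14, edgeR adjusted p = 0.0125) at 6 h and -0.48 (SE 0.13, adjusted p = 0.00288) at 72 h. The 72 h value within replicates 1 and 2 was -0.35 (edgeR adjusted p = 0.157), and within 3 and 4 it was -0.65 (adjusted p = 0.0103). At 6 h the values were -0.53 and -0.50 (edgeR adjusted p = 0.104 and 0.22), and the call was lost without 0 h replicate 1, 6 h replicate 1 or 6 h replicate 4. Corrected for loop length the 6 h value was -0.42 (edgeR adjusted p = 0.0635), and with the replicate block as well it was -0.42 and passed (adjusted p = 0.0393). The anchor chr6:135320001-135330000 held 3 loops, and all 3 fell at 72 h.

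The third loop of that anchor, loop14994, skips MYB: it joins the intergenic anchor beside HBS1L to AHI1 over 260 kb. It was thinner, with 27.5, 26.6, 33.9 and 27.3 normalized contacts at 0 h, 17.6, 20.6, 21.2 and 24.1 at 6 h, and 20.3, 18.1, 14.6 and 19.6 at 72 h. All later libraries lay below those of 0 h. It fell at 72 h by 0.59 on the log2 scale (SE 0.20, edgeR adjusted p = 0.0134), and the 6 h value of -0.43 (SE 0.20, adjusted p = 0.20) did not pass. Within replicates 1 and 2 and within 3 and 4 the 72 h value was -0.47 and -0.74, neither past the edgeR threshold (adjusted p = 0.207 and 0.051), and DESeq2 did not call it.

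The loop anchored at the start of HBS1L itself, loop14992, ran 370 kb to chr6:135420001-135430000 in AHI1. Its normalized contacts were 46.4, 39.9, 47.7 and 34.1 at 0 h, 29.4, 27.1, 36.8 and 32.6 at 6 h, and 40.7, 38.1, 36.4 and 45.5 at 72 h. The 72 h libraries lay within the 0 h range, and the log2 fold changes were -0.43 (SE 0.17, edgeR adjusted p = 0.113) at 6 h and -0.06 (SE 0.15, adjusted p = 0.784) at 72 h. The ratio of loop14994 to loop14992, whose anchors are next to each other at the HBS1L end, was 0.693 ± 0.0862 (n = 4) at 0 h, 0.669 ± 0.0938 (n = 4) at 6 h and 0.463 ± 0.0431 (n = 3) at 72 h. It lay between 0.40 and 0.50 in the 72 h libraries and between 0.594 and 0.80 at 0 h, without overlap. For loop14998 over loop14995, neighbours without a shared anchor, the ratios did overlap. Its 0 h libraries spanned 1.14 to 2.29, and its 72 h libraries spanned 0.849 to 1.31. Neither ratio was tested, and how often such ratios separate in other loop pairs was not examined. The other HBS1L loop, loop14991, which ran 1230 kb from the gene body to BCLAF1, held 4.55 to 8.69 normalized contacts at 0 h, 5.61 to 7.84 at 6 h and 3.01 to 8.32 at 72 h, too few for a test.

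Loop14995 was the only loop with an anchor deep between the genes, at chr6:135140001-135150000, and it ran 280 kb over MYB to the AHI1 anchor of loop14992. It held 42.0, 56.0, 53.9 and 58.0 normalized contacts at 0 h, 51.0, 52.3, 49.5 and 47.1 at 6 h, and 60.2, 39.2, 55.1 and 37.5 at 72 h. The groups overlapped, with log2 fold changes of -0.04 (SE 0.15, edgeR adjusted p = 0.929) and -0.10 (SE 0.15, adjusted p = 0.639), and both signs turned within replicates 1 and 2 (0.09 and 0.05). Loop14992 and loop14995 stood at 1.93 and 1.81 times the median level of listed loops of their length at 0 h, and at 1.80 and 1.63 times at 72 h. Loop14997 and loop14998 went from 1.51 and 1.18 times at 0 h to 1.00 and 0.768 times at 72 h.

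**Figure D2:**
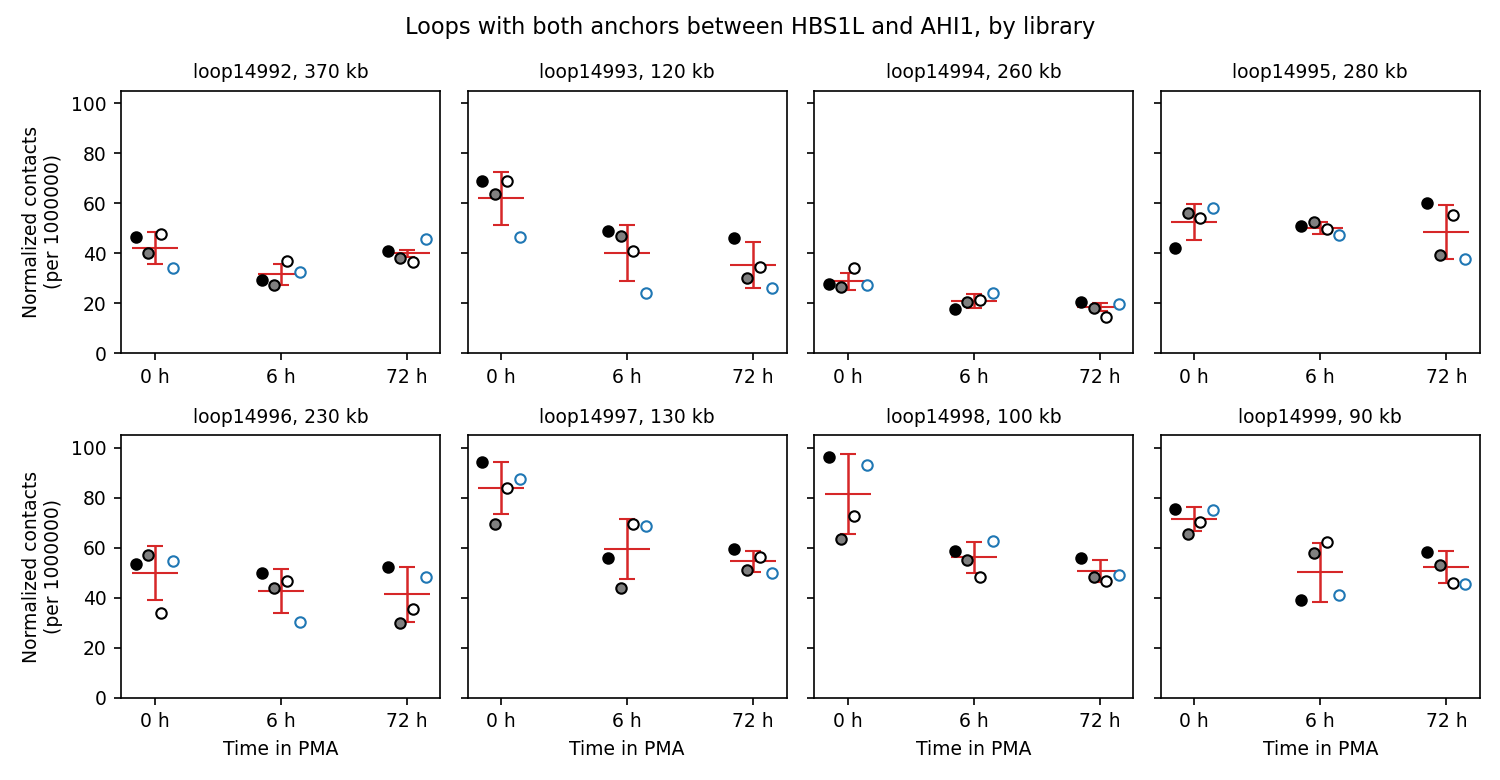
Normalized contacts per 1000000 in each library for the 8 loops between HBS1L and AHI1, by time in PMA. Circles are replicates 1 (black), 2 (grey), 3 (open, black edge) and 4 (open, blue edge), and red bars are mean ± SD (n = 4, 4 and 3); loop14993, loop14994, loop14997, loop14998 and loop14999 have no 72 h library in the 0 h range, while loop14992, loop14995 and loop14996 overlap.

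On the side of HBS1L away from MYB, towards SGK1, a kinase gene induced by serum and glucocorticoids, 4 of the 11 loops rose at 72 h and 1 fell, and none passed at 6 h. At 72 h that is 45.5% changed, beside 33.6% of all tested loops (16.7% rose and 16.9% fell). Loop14976 joins an intergenic anchor at chr6:134110001-134120000 to ALDH8A1 (chr6:134930001-134940000) over 820 kb. Its normalized contacts were 21.7, 20.9, 17.6 and 22.7 at 0 h, 23.5, 31.8, 32.5 and 33.8 at 6 h, and 41.6, 37.1, 55.1 and 42.0 at 72 h. Every 6 h library exceeded every 0 h library, and every 72 h library exceeded both. The log2 fold change was 0.49 (SE 0.20, edgeR adjusted p = 0.121) at 6 h and 1.00 (SE 0.18, adjusted p = 1.97e-06) at 72 h, or 2.00-fold. The 72 h value was 0.82 within replicates 1 and 2 and 1.16 within 3 and 4, and both passed. It also rose from 6 h to 72 h, by 0.51 (SE 0.17, edgeR adjusted p = 0.0204), a call lost without 6 h replicate 1 (0.40) or 72 h replicate 3 (0.39). That call was also lost with DESeq2, with correction for loop length (0.38), within replicates 1 and 2 and within replicates 3 and 4. Loops of about the length of loop14976 moved up in the whole table, with a median log2 fold change of 0.26 at 72 h and 21.5% of them rising.

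Loop14987 joins intergenic anchors at chr6:134450001-134460000 and chr6:134640001-134650000 over 190 kb. It held 23.9, 32.3, 18.8 and 21.6 normalized contacts at 0 h, 32.4, 35.5, 24.1 and 29.0 at 6 h, and 55.7, 50.2, 36.4 and 40.2 at 72 h. The 72 h libraries lay above all others. It rose by 0.85 (SE 0.17, edgeR adjusted p = 2.85e-05) at 72 h, or 1.80-fold, with 0.89 within replicates 1 and 2 and 0.85 within 3 and 4. It was the shortest loop of the locus to rise; loops of its length had a median log2 fold change of -0.08 at 72 h, and 16.7% of them rose. From 6 h to 72 h it rose by 0.54 (SE 0.17, edgeR adjusted p = 0.0132), a call lost without 6 h replicate 3 (0.46) or 72 h replicate 1 (0.43). DESeq2 and the fit within replicates 3 and 4 did not give this call for loop14987 either. Loop14988, which shares its first anchor and runs 360 kb, rose by 0.52 (SE 0.19, edgeR adjusted p = 0.0238) at 72 h, with overlapping groups. The call was lost with DESeq2, with no filter on low counts, within replicates 3 and 4, and without 0 h replicate 1, 2 or 4 or 72 h replicate 2 or 4.

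Loop14978, 750 kb long, ran from chr6:134130001-134140000 to chr6:134880001-134890000, both intergenic. It went from 42.0, 38.9, 33.9 and 37.5 normalized contacts at 0 h to 58.4, 64.3, 56.2 and 55.3 at 72 h, without overlap, through 38.2, 46.7, 48.1 and 49.5 at 6 h. Its log2 fold change at 72 h was 0.57 (SE 0.15, edgeR adjusted p = 0.000944), but corrected for loop length it was 0.34 and did not pass. The loop that fell in this stretch, loop14983, joins chr6:134170001-134180000, inside SGK1, to chr6:134630001-134640000 over 460 kb. It held 55.8, 59.8, 43.9 and 43.2 normalized contacts at 0 h, 42.2, 39.3, 35.4 and 42.2 at 6 h, and 38.9, 24.1, 37.4 and 26.8 at 72 h. All later libraries lay below the 0 h range, and the log2 fold change at 72 h was -0.67 (SE 0.16, edgeR adjusted p = 0.00038). It was -0.83 within replicates 1 and 2 and -0.43 within 3 and 4, where it did not pass (edgeR adjusted p = 0.185). Its far anchor lies beside that of loop14987, which rose. The other 6 loops of this stretch did not pass, with log2 fold changes at 72 h between -0.31 and 0.54, and 4 of the 11 shared the ALDH8A1 anchor.

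Beyond AHI1, towards PDE7B and BCLAF1, 3 of the 11 tested loops rose at 72 h and none fell. That is 27.3% changed, beside 33.6% of all tested loops (16.7% rose and 16.9% fell). Among all tested loops within 10% of the length of each of these 3, between 16.9% and 18.0% rose. Loop15010, 640 kb long between chr6:135670001-135680000 and chr6:136310001-136320000, rose from a low level. It held 7.24, 9.49, 7.53 and 5.69 normalized contacts at 0 h, 11.8, 17.8, 7.08 and 10.9 at 6 h, and 12.4, 20.1, 18.7 and 16.1 at 72 h. Each 72 h library exceeded each 0 h library. The log2 fold change was 0.97 (SE 0.26, edgeR adjusted p = 0.00213), or 1.95-fold, from 31 raw contacts in all at 0 h and 70 at 72 h. It was 0.82 within replicates 1 and 2 (edgeR adjusted p = 0.0875) and 1.15 within 3 and 4 (adjusted p = 0.0293).

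Loop15009 shares the first of these anchors and runs 550 kb to chr6:136220001-136230000. It held 13.8, 21.8, 17.6 and 19.3 normalized contacts at 0 h, 22.6, 20.6, 14.2 and 10.9 at 6 h, and 31.0, 35.1, 23.9 and 25.0 at 72 h, where all libraries lay above those of 0 h and 6 h. It rose by 0.64 (SE 0.20, edgeR adjusted p = 0.00852) against 0 h and by 0.65 (SE 0.21, adjusted p = 0.0166) against 6 h. The first value was 0.85 within replicates 1 and 2 and 0.37 within 3 and 4 (edgeR adjusted p = 0.0118 and 0.41), and its call was lost with DESeq2 and without 0 h replicate 1 or 72 h replicate 2. The call against 6 h was lost without 6 h replicate 3, 6 h replicate 4 or 72 h replicate 2. DESeq2 and the fits within replicates 1 and 2 and within 3 and 4 lost that call too. Loop15008, which ends inside PDE7B, rose by 0.52 (SE 0.18, edgeR adjusted p = 0.0209) at 72 h with overlapping groups. That call was lost with DESeq2, with correction for loop length, with no filter on low counts, within replicates 1 and 2, and without 0 h replicate 1 or 3 or 72 h replicate 2, 3 or 4. Against 6 h, loop15008 rose by 0.65 (SE 0.19, edgeR adjusted p = 0.00947), also with overlapping groups. The call against 6 h was lost with DESeq2, within replicates 1 and 2, and without 6 h replicate 4.

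Loop15005 passed as lower at 6 h and did not pass at 72 h, the only loop of the locus to do so in edgeR. It is 710 kb long, with both anchors intergenic, and like loop14988 and loop15008 it was named after its values were seen. It held 41.3, 56.0, 37.6 and 30.7 normalized contacts at 0 h, 26.5, 27.1, 21.2 and 33.8 at 6 h, and 46.9, 39.2, 31.2 and 31.2 at 72 h. The 6 h libraries were low apart from replicate 4, which lay inside the 0 h range. The log2 fold change was -0.59 (SE 0.18, edgeR adjusted p = 0.0263) at 6 h and -0.16 (SE 0.16, adjusted p = 0.448) at 72 h. The 6 h call was lost with DESeq2, within replicates 3 and 4, and without 0 h replicate 1 or 2 or 6 h replicate 1, 2 or 3. The difference from 6 h to 72 h, 0.42 (SE 0.18, edgeR adjusted p = 0.0809), did not pass, but it did with the replicate number as a block. The other 7 tested loops beyond AHI1 had log2 fold changes at 72 h between -0.21 and 0.37, and the 2 tested spanning loops had 0.48 and -0.31, none past the threshold.

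**Figure D3:**
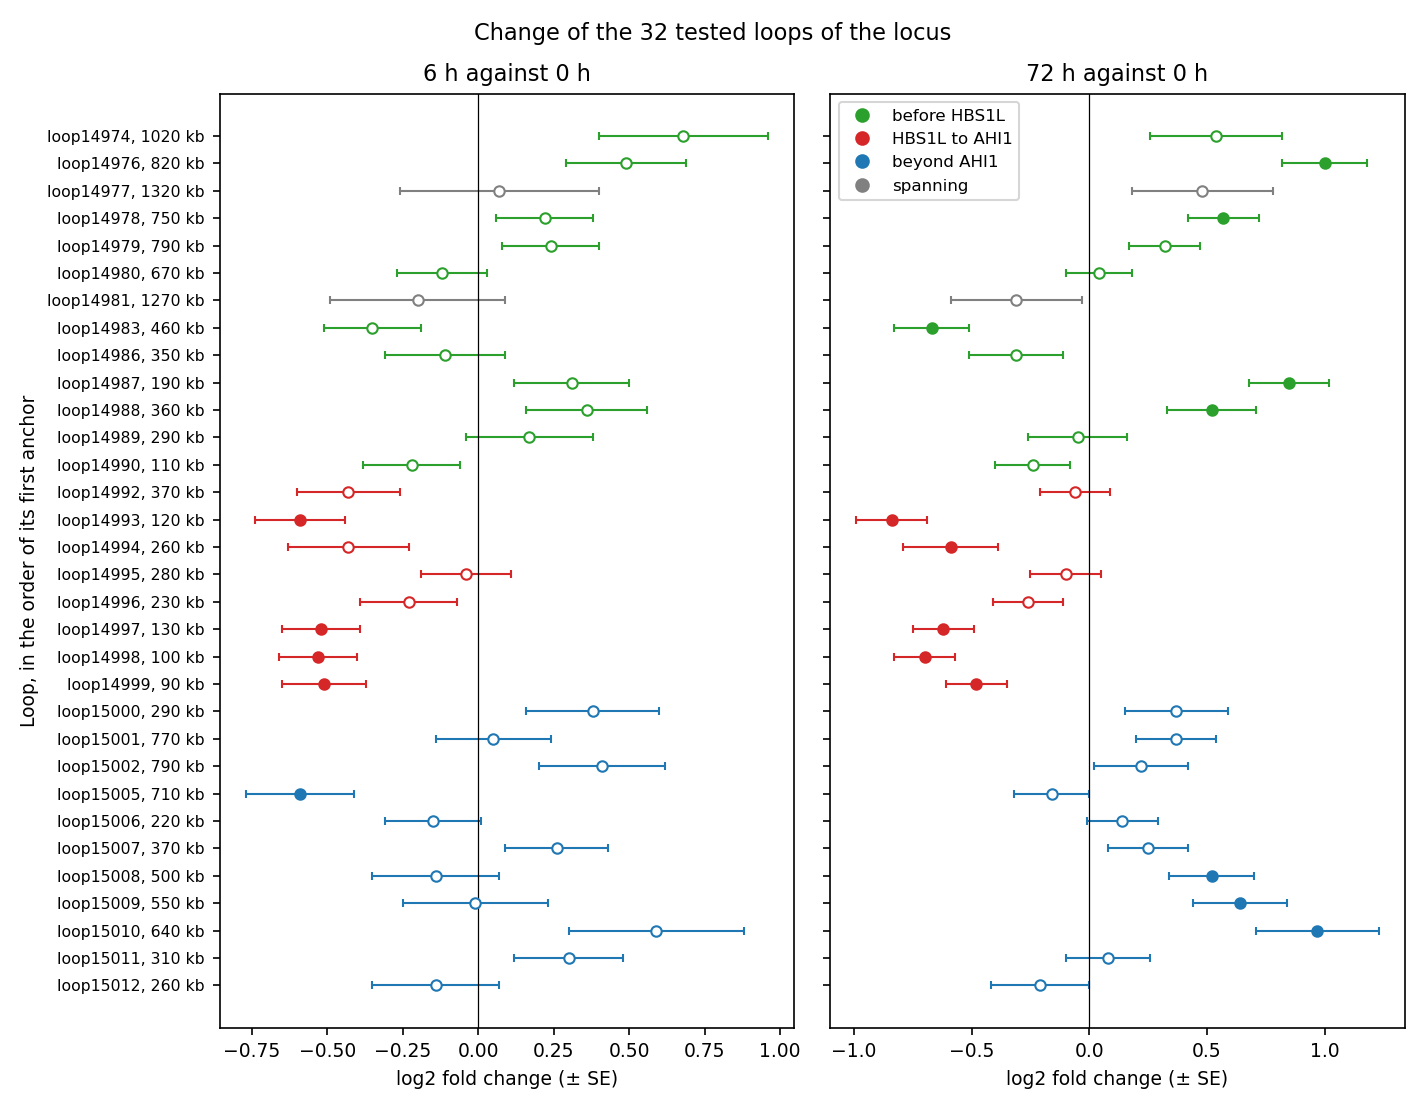
Log2 fold change ± SE (edgeR) of the 32 tested loops at 6 h (left) and 72 h (right) against 0 h, in the order of the first anchor and coloured by position. Filled circles passed an adjusted p of 0.05; the 8 red loops between HBS1L and AHI1 all lie left of 0 in both panels, with 4 filled at 6 h and 5 at 72 h, and the filled loops right of 0 appear only at 72 h.

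Summed by position, contacts moved in opposite directions. The positions were set after the loops' values were known, and all 8 middle loops had negative log2 fold changes. The fall of their sum is therefore no separate evidence. The sums were not corrected for loop length, and median lengths were 180 kb in the middle, 460 kb before HBS1L and 550 kb beyond AHI1. The 8 loops between HBS1L and AHI1 held 445.5 ± 21.7 contacts per 1000000 contacts in all loops at 0 h (n = 4), 338.7 ± 18.1 at 6 h (n = 4) and 329.4 ± 41.1 at 72 h (n = 3). Single libraries spanned 421.9 to 472.8 at 0 h, 315.4 to 359.6 at 6 h and 298.1 to 375.9 at 72 h, so neither later time overlapped 0 h. The 11 loops before HBS1L held 323.9 ± 20 at 0 h, 349.7 ± 28.9 at 6 h and 388.9 ± 8.04 at 72 h, where the lowest library (371.0) exceeded the highest of 0 h (350.2). The 13 loops beyond AHI1 held 275.0 ± 41.9, 292.5 ± 20.5 and 342.7 ± 7.86, and 0 h replicate 2 (333.9) reached the 72 h range. All 35 loops together held 1068 ± 60.5, 1005 ± 29.1 and 1084 ± 43.7, and these totals overlapped between 0 h and the later times. The sums were not tested.

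**Figure D4:**
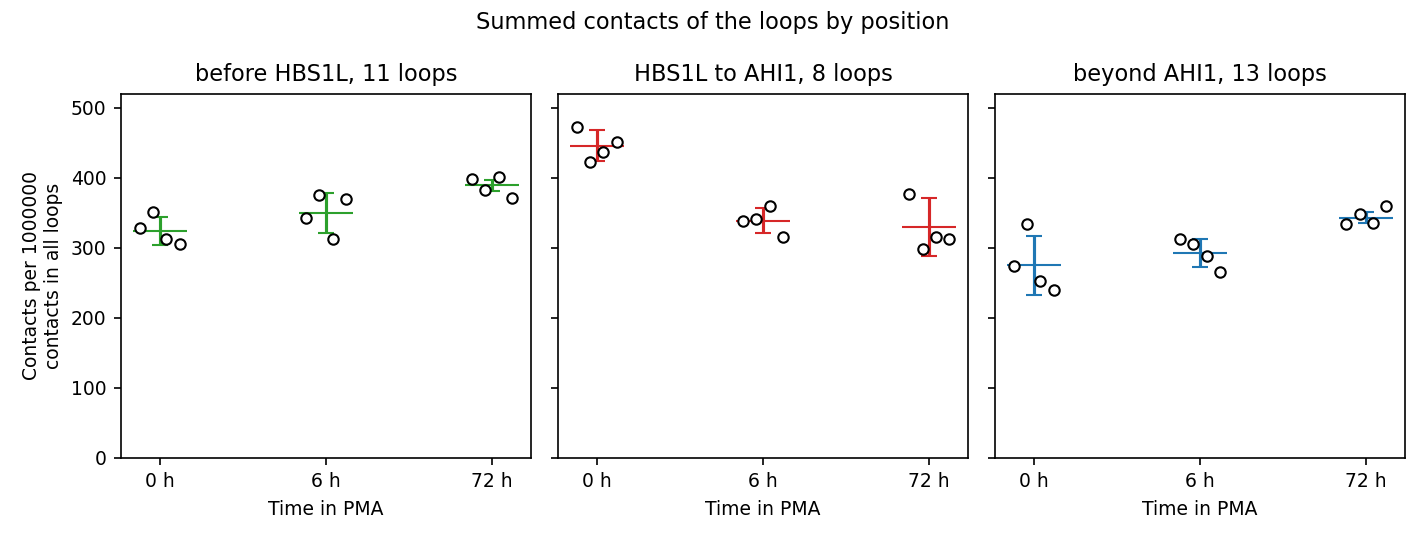
Contacts per 1000000 contacts in all loops, summed over the loops before HBS1L (11 loops), from HBS1L to AHI1 (8) and beyond AHI1 (13), by time in PMA. Circles are the 4 libraries of each time and bars are mean ± SD (n = 4, 4 and 3); the middle panel falls from 421.9 to 472.8 at 0 h to 375.9 or less at both later times, and the outer panels are highest at 72 h.

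In the authors' deposited table, loop14993 was the only loop of the locus classed as lost, with -0.39 (6 h) and -0.72 (72 h) as log2 fold changes and an adjusted p of 0.0061. The authors' deposited table classed loop14976 (log2 fold change 0.96 at 72 h) and loop14987 (0.83) as gained. The other 32 loops were static in the authors' deposited table, 7 of the 35 without a fold change. Among the static loops of the authors' deposited table were loop14997 (-0.51 at 72 h, adjusted p = 0.0183) and loop14998 (-0.58, adjusted p = 0.0098).

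The profile of loop14997, the strongest loop at MYB, was set against 8480 loops elsewhere with an end of a protein-coding gene in an anchor. The measure was Pearson's r of log2 normalized contacts over the 12 libraries, which share the design over time and differ in depth. The closest was loop28358 on chromosome 16 (r = 0.97), with the alpha-globin genes HBA1 and HBA2 in an anchor and a log2 fold change at 72 h of -0.39 (edgeR adjusted p = 0.00189). Next came loop33494 on chromosome X at BEX4 (r = 0.97) and loop8531 at UBE2K and PDS5A (r = 0.96). Loop29701 at HEXIM1 and ACBD4 (r = 0.95) was also among the closest. HBA1 and HBA2 are near-identical copies, so reads between them may be misplaced. These loops were picked as the highest of many, so r is a description. Within the locus, r with loop14997 was 0.82 for loop14998, 0.77 for loop14994, 0.65 for loop14999 and 0.53 for loop14993, and -0.90 for loop15010.

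Loops at other genes tied to MYB were read from a list of 32 genes (MYB relatives, GATA and LDB1 partners, globins and their regulators, MYB cofactors and MYB targets). Of these, 16 had a tested loop with a gene end in an anchor, 32 loops in all. At 6 h 3 of them fell and 0 rose (9.38%, beside 6.41% of all tested loops). At 72 h 10 fell and 2 rose (37.5%, beside 33.6% of all tested loops), with a median log2 fold change of -0.16. From 6 h to 72 h, 4 fell and 0 rose (12.5%, beside 20.5% of all tested loops). Of the 4 tested loops at globins and their regulators, 3 fell at 72 h (75.0%, beside 16.9% of all tested loops that fell). They were at HBG2, a fetal globin gene (-0.44, SE 0.11, edgeR adjusted p = 0.000627), at KLF1, an erythroid transcription factor gene (-0.41, SE 0.11, adjusted p = 0.00155), and at NFIX (-0.52, SE 0.10, adjusted p = 8.09e-06). These 3 loops were short (30, 50 and 120 kb). Of all tested loops within 10% of 120 kb, 27.4% fell at 72 h, and the shares at 30 and 50 kb were not examined. The KLF1 and NFIX loops lie close together on chromosome 19, with anchors starting at 12880001 and 12930001 and at 12970001 and 13090001. Other genes also have ends in the KLF1 and NFIX anchors, and HBG2 has a near-identical copy, HBG1, beside it.

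Of the 20 tested loops at MYB targets, 5 fell and 2 rose at 72 h, a share (35.0%) close to the 33.6% of all tested loops. The loop at CCND3, the cyclin D3 gene, fell at 6 h (-0.47, SE 0.09, edgeR adjusted p = 0.000298) and at 72 h (-0.53, SE 0.09, adjusted p = 1.5e-06). MYC, a proto-oncogene, held most of the 20 loops, and they start from adjacent anchors, so they are not independent. Among them loop18717 fell most at 72 h (-0.87, SE 0.17, edgeR adjusted p = 1.53e-05). Loop18707 (-0.51, SE 0.15, edgeR adjusted p = 0.00446) and loop18709 (-0.60, SE 0.17, adjusted p = 0.00296) also fell. The MYC loop loop18713 rose (0.70, SE 0.28, edgeR adjusted p = 0.0459), and the other MYC loops did not pass. At GATA3 the loop rose (0.70, SE 0.20, edgeR adjusted p = 0.0032). The 1 tested loop of the MYB family, at MYBL1, did not pass at 72 h (0.53, SE 0.26, edgeR adjusted p = 0.105). Of the 4 tested loops of the LDB1 complex and GATA factors, that at LMO2 fell at 72 h (-0.23, SE 0.10, edgeR adjusted p = 0.0494). Of the 3 at MYB cofactors, 1 at TAF12 fell (-0.35, SE 0.14, edgeR adjusted p = 0.0456). For these 2 lists, 25.0% and 33.3% of the loops were called, beside 33.6% of all tested loops.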

How the data were processed

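The series holds 42 samples of in situ Hi-C, 14 per time point. The authors deposited raw contact counts per loop in 30 columns, 1 per technical replicate, per the file headers, and all were used. Technical replicates and sequencing runs were summed into 12 libraries. The build hg38, Juicer 1.5.6 and DESeq2 come from the submitters' processing notes; the loop caller is not given in the sources used here. Deposited with them were the authors' log2 fold changes for both later times and 1 adjusted p-value per loop, the same in both of its columns. Anchor positions, the other deposited values, are given counted from 1. Counts hold the local background of each pixel, because none was subtracted.

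Loops were filtered with filterByExpr (minimum count 10, minimum total 15) and tested by edgeR's quasi-likelihood test (edgeR 4.0.16, R 4.3.3, TMM scaling, prior count 2, no covariate, 1 model of all 3 times). P-values were adjusted over the 24132 tested loops. SE is the absolute log2 fold change divided by the root of F. In simulated counts of the 72 h against 0 h comparison over 24132 loops with 200 changed, 75% of 2-fold and 20% of 1.5-fold changes were called, with 2 false calls among 97. The simulation gave all loops the same assumed spread between independent libraries, and changed far fewer loops than the 8105 called at 72 h. Its rates therefore need not hold for the calls reported here. Alternatives were other scalings, filters and thresholds, DESeq2 1.42.0, a length correction (loess, span 0.3), a replicate block, batches (replicates 1 and 2, with 3 technical replicates, against 3 and 4, with 2 technical replicates sequenced 2 times, per the labels), summing replicates 3 and 4, and leaving out each library. Replicate numbers were not used to pair samples: same-numbered deviations correlated at 0.013 to 0.122 over 12 comparisons, 1 of them over 0.1.

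Loops named were those at MYB, at HBS1L or with an anchor between them, up to 5 of the other loops with the largest rise and fall past the threshold at 72 h, and the 3 with the highest mean. The members, the gene list and the tests were chosen with earlier results of these data known. Genes come from RefSeq (GRCh38.p14), and a gene was placed at an anchor by either of its ends. Nothing in the labels ties the biological replicates to separate cultures, so p-values measure the spread between these samples. No genome was used, so anchor sequences are not shown. Of the loops closest in profile, 1 is not reported here.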

Additional observations from a re-analysis of the deposited data

Results flagged for a closer look

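In 30 groups of 4 libraries (the named loops at 0 h and 6 h), the gap of the highest or lowest library was set against Dixon's 95% critical value for 4 samples. Chance flags about 1 in 20 groups, or 1.5 of 30, and 2 were found, both at 0 h replicate 3. For loop14994 this library was the highest with 33.9 normalized contacts, and the other 0 h libraries held 26.6 to 27.5. For loop14996 it was the lowest, also with 33.9, and the others held 53.6 to 57.0.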

How the results depend on the processing

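At 6 h, the 5 changed loops became 0 with DESeq2 (also 0 without its independent filtering, an alternative chosen after seeing the data), 2 within replicates 1 and 2, 0 within replicates 3 and 4 and 3 at an adjusted p under 0.01. Leaving out 1 library gave 0 to 5: 0 without 0 h replicate 1, and 3 without 6 h replicate 1, 2 or 4. Over the whole table, the 1546 loops called at 6 h became 438 with DESeq2 and 709 without 0 h replicate 1. At 72 h, the 13 changed loops became 5 with both anchors required in the window, and 11 to 13 with 1 library left out. Those 5, of 13 tested loops with both anchors inside, all fell, and 0 rose. Each of the 7 loops that rose at 72 h had 1 anchor outside the window. Between 6 h and 72 h, the 4 loops became 0 with DESeq2 in either form, 1 within replicates 1 and 2, 1 within replicates 3 and 4, 1 at an adjusted p under 0.01 and 0 with both anchors required. Leaving out 1 library gave 2 to 4, with 2 without 6 h replicate 3 or 4. With the replicate block these counts were 5, 13 and 5, and every main call was kept; the loop added between 6 h and 72 h was loop15005, which rose. Corrected for loop length they were 4, 12 and 3. Together with the replicate block, chosen after seeing the data, they were 5, 13 and 3. All other alternatives run left the counts within 1.5 times. The fall of loop14993, loop14997 and loop14998 and the rise of loop14976 and loop14987 at 72 h passed in all 27 settings.

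With both anchors in the window, the summed share was 594.4, 494.3 and 494.5 contacts per 1000000 at 0 h, 6 h and 72 h. The share of all 35 loops per 1000000 contacts of chromosome 6 loops was 14350, 13630 and 14500. Counting any part of a gene over an anchor gave 8 genes in place of 5. The signs that turned were of values that had not passed. Loop14992 at 72 h was 0.02 within replicates 3 and 4. Loop14995 within replicates 1 and 2 was 0.09 at 6 h and 0.05 at 72 h, and -0.16 to 0.01 and -0.24 to 0.0 with 1 library left out. Loop15009 at 6 h was 0.02 scaled to total contacts, 0.02 with a minimum count of 20, 0.28 within replicates 1 and 2 and -0.17 to 0.12 with 1 library left out. The causes were not tested. Depth limits the long loops most: 3 of the 35 could not be tested.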
